A study of Mus musculus with 8 samples.

Results

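Transcripts of the nuclear-encoded subunits of the mitochondrial respiratory chain and ATP synthase were compared between regulatory T cells (Tregs) from 2 kinds of bone marrow chimera. The members were chosen by name, as genes whose symbol marks a subunit of complexes I to IV or of ATP synthase, or cytochrome c, with assembly factors and pseudogenes left out. Only genes with a probe set of their own, annotated with 1 symbol, could be members, so that Cox7c and Ndufb4, whose probe sets are shared with other symbols, were not analysed here. They were 84 of the 19937 genes tested: 36 of complex I, 4 of complex II, 9 of complex III, cytochrome c itself, 17 of complex IV and 17 of ATP synthase. All recipients were CD3ε-/- mice, which make no T cells of their own, and were lethally irradiated. The WT-CD3KO chimeras (here WT) were given WT mouse marrow and the IIKO-CD3KO chimeras (here IIKO) were given IIKO mouse marrow. The labels state that peripheral Tregs of the IIKO group lack interactions between their T cell receptor and MHC class II, and that those of the WT group do not. Cells that were CD4+ TCRβ+ CD25+ were sorted from lymph nodes and spleen 28 days after reconstitution, and each group had 4 biological replicates, 1 Affymetrix array each. The strain was C57BL/6 and the age 6 to 8 weeks. How many mice each replicate pools is not given in the sources used here, so each p-value reflects only how far these 8 samples spread, which may be partly technical.

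The respiratory chain passes electrons from NADH (at complex I) and succinate (at complex II) through complex III and cytochrome c to oxygen at complex IV. Complexes I, III and IV pump protons across the inner mitochondrial membrane, and ATP synthase uses the returning protons to make ATP. Most subunits are encoded in the nucleus and imported, and a few core subunits come from mitochondrial DNA. Tregs are known to lean on oxidative phosphorylation more than conventional effector T cells do, and Foxp3, their defining transcription factor, is known to favour it.

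Values are log2 expression per probe set, as deposited, and differences are IIKO minus WT in log2 units. The array medians over all probe sets lay between 6.96 and 7.03. Foxp3 was at 10.63 ± 0.045 in WT and 10.68 ± 0.12 in IIKO Tregs (SD, n = 4 arrays each, as for every such value below), and the mean of the 9 Treg markers lay between 11.68 and 11.80 on all arrays. Of these 9 markers, 6 had higher means in IIKO and 3 lower (median 0.046), and 0 passed limma's adjusted test. Il2ra (0.17) and Ctla4 (0.12) were higher at an unadjusted p under 0.05, as were 5.27% of all genes. All IIKO arrays lay above all WT arrays for Il2ra, Ctla4 and Ikzf2, against 2.83% of all genes. Cd4 was at 0.13. Means of marker lists of other cells were between 5.40 and 7.05 on every array, and each list's range in IIKO overlapped its range in WT. Some single markers were brighter, such as Cst3 (means of 10.40 in WT and 10.48 in IIKO) and Cd8b1 (7.77 and 7.68). Gzma ran from 8.58 to 10.08 over the WT arrays and from 8.46 to 8.72 over the IIKO arrays. For the 6 measured B cell markers the ranges were 5.92 to 6.24 in WT and 5.96 to 6.09 in IIKO, and for the 9 myeloid and dendritic cell markers 6.51 to 6.72 and 6.48 to 6.87. The 6 NK and CD8 T cell markers had ranges of 6.46 to 6.78 and 6.47 to 6.53, the 3 measured erythroid markers 6.88 to 7.05 and 6.56 to 6.92, and the 4 thymocyte markers 5.68 to 5.83 and 5.40 to 5.79. Most markers outside the Treg and myeloid lists had lower means in IIKO, and 0 of them passed limma's adjusted test, while 1 B cell, 3 NK and CD8 T cell and 1 erythroid marker had an unadjusted p under 0.05. All 6 B cell, 3 erythroid and 4 thymocyte markers were negative, with medians of -0.10, -0.19 and -0.13. Over all genes, 62.9% were negative, 12.0% were lower at an unadjusted p under 0.05 and 7.69% had all IIKO arrays below all WT arrays. For the 9968 genes of lower mean level these shares were 79.5%, 16.6% and 10.9%. Of the 6 NK and CD8 T cell markers 5 were negative (median -0.11), with Gzma, a granzyme, at -0.78 and Klrd1 at 0.40, and for 2, Cd8a and Klrb1c, all IIKO arrays lay below all WT arrays. The myeloid list had 2 of 9 negative and a median of 0.044. The part of such cells in the differences below was not tested. RMA values have no true 0, so whether a marker was absent cannot be read from them. In a sorted bulk population, fewer cells of a type and less RNA per cell cannot be told apart.

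The subunit transcripts had lower means in IIKO Tregs for 66 of the 84 members (78.6%, against 62.9% of all genes), by small amounts, and 1 of them fell past the test. That was Uqcr10, the smallest-p member and a small subunit of complex III; the other 83 did not pass (limma, Benjamini-Hochberg adjusted p over all genes at a threshold of 0.05, where 0.286% of all genes passed in either direction and 0.125% passed as lower). The median difference of the members was -0.072, with extremes of -0.42 and 0.14, while the median of all genes was -0.038. At an unadjusted p under 0.05, 20 members were lower (23.8%) and 1 was higher, against 12.0% of all genes lower and 5.27% higher. In 18 members (21.4%) all 4 IIKO arrays lay below all 4 WT arrays, and in 1 all lay above; over all genes these shares were 7.69% and 2.83%.

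Nearly all members are bright on these arrays, and dim genes as a whole had lower means in IIKO (79.5% of the 9968 dimmer genes were negative). Among the 9969 brighter genes, 46.4% were negative, the median difference was 0.011, 7.42% were lower at an unadjusted p under 0.05 and 4.49% had IIKO arrays wholly below WT arrays. The 80 members in that set had 63 negative differences (78.8%) and a median of -0.074, with 20 lower at an unadjusted p under 0.05 and 18 wholly below. How many members are negative depends on the scaling of the arrays. It was 66 (78.6%) as deposited, 71 (84.5%) after a further quantile normalization and 53 (63.1%) with arrays centred on their medians, where all genes had 62.9%, 52.7% and 45.5% negative and the brighter genes 46.4%, 52.6% and 30.6%.

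**Figure D1:**
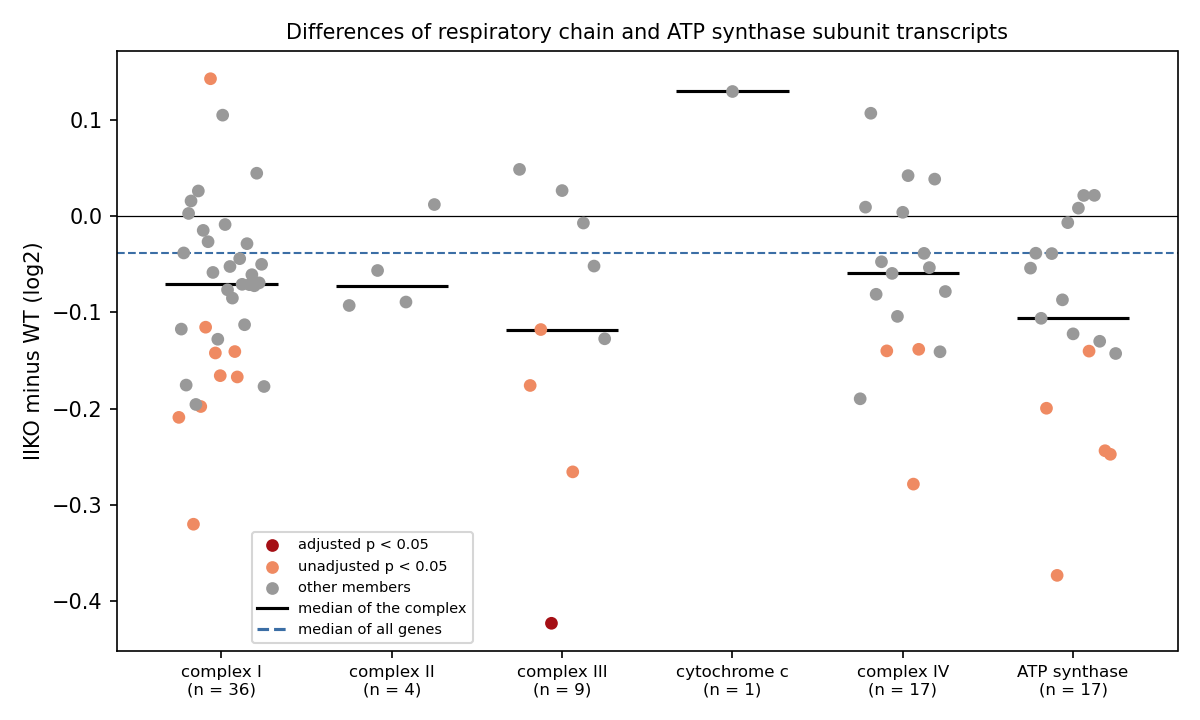
Each point is the difference IIKO minus WT (log2, vertical axis) of 1 subunit gene, grouped by complex with the number of genes; black bars are medians and the dashed line is the median of all genes. Most points lie below 0, Uqcr10 of complex III is lowest at -0.42, and the highest is Ndufs1 of complex I at 0.14.

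Averaged over the 84 members, the 4 WT arrays stood at 10.557, 10.515, 10.555 and 10.485 and the 4 IIKO arrays at 10.458, 10.447, 10.439 and 10.431. The groups did not overlap, and the means differed by -0.084, against an SD of 0.034 in WT and 0.012 in IIKO. The mean over the 9969 brighter genes lay between 8.747 and 8.800 in WT and between 8.773 and 8.814 in IIKO arrays. By complex, the means of complex III and of ATP synthase separated the groups. Those of complex II and complex IV overlapped, and those of complex I overlapped by WT array 4 (10.348) and IIKO array 1 (10.352). Complex medians were -0.071 for complex I, -0.073 for complex II, -0.118 for complex III, -0.059 for complex IV and -0.106 for ATP synthase, and the difference of the cytochrome c gene was 0.13.

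**Figure D2:**
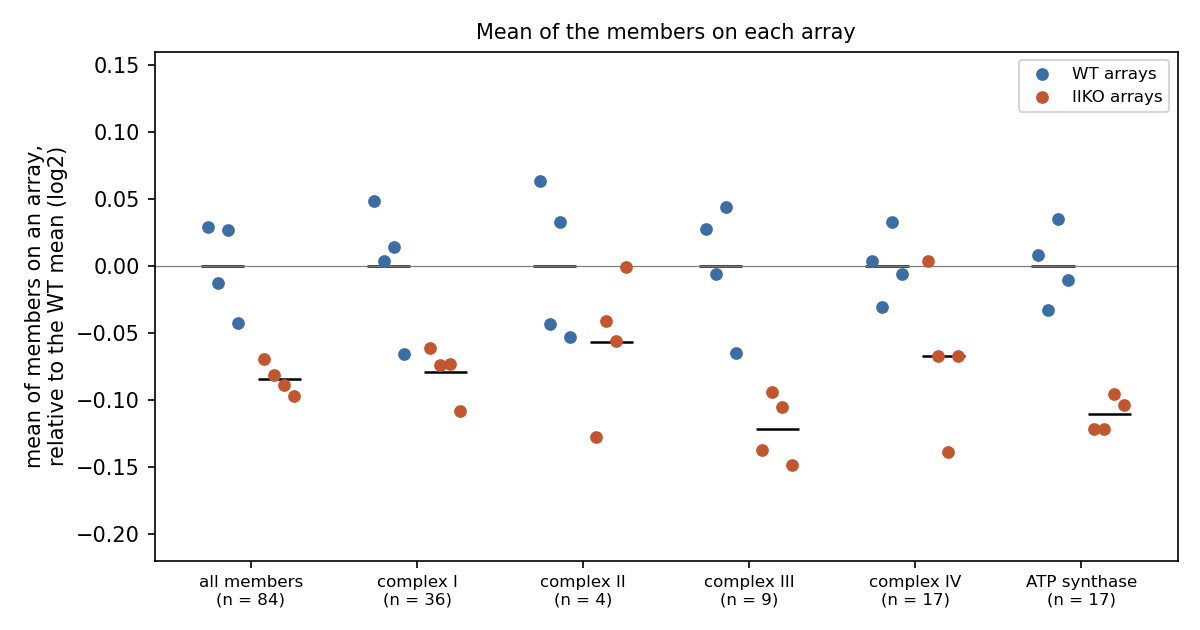
Each point is 1 array: the mean log2 value of the members of a complex, relative to the mean of the 4 WT arrays (vertical axis), with black bars at the group means. Over all members the IIKO arrays (orange) lie below the WT arrays (blue); in complex II and complex IV the groups overlap.

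Complex III, which takes electrons from ubiquinol to cytochrome c, held the gene that fell. Uqcr10, a small membrane subunit, was at 10.60, 10.55, 10.73 and 10.72 on the WT arrays and at 10.14, 10.23, 10.24 and 10.28 on the IIKO arrays. Every IIKO array lay below every WT array by a clear gap, and the fall of 0.42 (1.34-fold, 95% confidence interval of the difference -0.56 to -0.29) had a limma adjusted p of 0.0215. The call did not hold when any 1 of WT arrays 1, 3 and 4 or IIKO arrays 1, 2 and 3 was left out (adjusted p from 0.0602 to 0.0788), although the difference stayed between -0.46 and -0.40. It was also lost when the genes of chromosomes 7 and 17, which hold 17 and 18 of the 57 genes that passed, were taken out of the test (adjusted p = 0.0681). Uqcr10 itself lies on chromosome 11.

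Uqcr11, the other of the smallest complex III subunits, was at 9.74, 9.43, 9.64 and 9.59 in WT and at 9.26, 9.35, 9.37 and 9.35 in IIKO. The groups did not overlap, and the difference of -0.27 ± 0.07 (SE) did not pass (limma adjusted p = 0.160). Uqcrh, the hinge protein that helps cytochrome c dock, was at 12.27 ± 0.06 and 12.15 ± 0.01, again without overlap (adjusted p = 0.275). Uqcrc1, a core protein of the matrix side, was at 9.36 ± 0.10 and 9.19 ± 0.05 (adjusted p = 0.217), and IIKO array 2 (9.24) lay just above WT array 4 (9.22). The subunits that carry the redox groups differed by less than their spread: Cyc1, the cytochrome c1 haem protein, by -0.0071 (turning to 0.043 with centred arrays) and Uqcrfs1, the Rieske iron-sulfur protein, by 0.027. Among the 5 small subunits the median difference was -0.13, and Uqcrb was the positive one, at 0.049.

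Complex I, the NADH dehydrogenase, had 30 of its 36 members negative (83.3%, against 62.9% of all genes) and 0 past the adjusted test. At an unadjusted p under 0.05, 8 were lower (22.2%) and 1 higher, against 12.0% and 5.27% of all genes. The largest difference was that of Ndufa11, a membrane-arm accessory subunit needed for assembly of the complex. It was at 10.63, 10.63, 10.81 and 10.65 in WT and at 10.37, 10.29, 10.37 and 10.40 in IIKO, so that all IIKO arrays lay below all WT arrays. Its difference of -0.32 ± 0.06 (SE; limma adjusted p = 0.0671) passed after a further quantile normalization (adjusted p = 0.0462) and with eBayes trend and robust variance (adjusted p = 0.0493). The gene has another probe set, which differed by -0.36.

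Ndufa7, an accessory subunit of the peripheral arm, was at 8.99 ± 0.09 and 8.78 ± 0.06 (limma adjusted p = 0.174). Ndufa13, also known as GRIM-19, was at 10.10 ± 0.05 and 9.93 ± 0.05 (adjusted p = 0.194). Both had no overlap between groups. Ndufc1, a small membrane-arm subunit, was at 9.12 ± 0.15 and 8.92 ± 0.05 (adjusted p = 0.238), and its groups overlapped at WT array 4 and IIKO array 3. The core subunits of the peripheral arm, which between them hold the flavin and the iron-sulfur clusters, did not share one direction. Of the 6 measured, Ndufs8 (-0.18), Ndufs7 (-0.17), Ndufs3 (-0.11) and Ndufv1 (-0.085) were negative, and Ndufv2 (0.016) and Ndufs1 (0.14) positive. Ndufs1, the largest subunit of the peripheral arm, was at 9.89, 9.98, 10.02 and 9.79 in WT and at 10.05, 10.04, 10.12 and 10.04 in IIKO. It was the member with all IIKO arrays above all WT arrays, by a narrow margin (limma adjusted p = 0.272).

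The 28 accessory subunits of complex I had a median of -0.071, with 24 negative (85.7%, against 62.9% of all genes). At an unadjusted p under 0.05, 7 were lower (25%, against 12.0% of all genes) and none was higher. Beyond those named, Ndufa2 (-0.14), Ndufb10 (-0.14) and Ndufa3 (-0.12) had groups that did not overlap, whereas Ndufab1, the mitochondrial acyl carrier protein, was at 0.11. Ndufa4, listed by its symbol with complex I although its protein is now assigned to complex IV, was at 12.20 ± 0.04 and 12.13 ± 0.05, with overlapping groups. Its hypoxia-linked paralogue Ndufa4l2 was at 6.48 ± 0.25 and 6.45 ± 0.09, and its difference of -0.029 turned to 0.047 after a further quantile normalization and to 0.022 with centred arrays.

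Complex II, succinate dehydrogenase, belongs to both the citric acid cycle and the chain, and 0 of its 4 genes passed at the adjusted or the unadjusted threshold. Sdha, the flavoprotein, was at 10.71 ± 0.015 in WT and 10.72 ± 0.085 in IIKO, and its difference of 0.012 turned to -0.019 after a further quantile normalization. Sdhb, the iron-sulfur subunit, differed by -0.093 ± 0.083 (SE). The membrane anchors Sdhc and Sdhd differed by -0.089 ± 0.068 and -0.056 ± 0.069. Cycs, the mobile electron carrier that also triggers apoptosome formation when released, was at 11.64, 11.76, 11.70 and 11.48 in WT and at 11.79, 11.72, 11.97 and 11.63 in IIKO. The groups overlapped (0.13 ± 0.085, SE; limma adjusted p = 0.441). Its other probe sets differed by 0.24 and -0.093.

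Complex IV, cytochrome c oxidase, has subunits that occur as general and tissue-restricted isoforms. The 10 general subunits had a median of -0.066 and 7 negative differences (70%, against 62.9% of all genes). Cox6a1 was at 12.15, 12.12, 12.21 and 12.12 in WT and at 12.03, 11.97, 12.02 and 12.01 in IIKO. The groups did not overlap, with a difference of -0.14 ± 0.05 (SE; limma adjusted p = 0.219). Cox5a, a subunit on the matrix side, also had no overlap (-0.10), and Cox8a, the smallest subunit, was at 10.44 ± 0.08 and 10.30 ± 0.09 (adjusted p = 0.295). Cox4i1 differed by -0.078, Cox7a2 by -0.081, Cox6b1 by -0.039 (0.012 with centred arrays) and Cox7a2l, a factor of supercomplexes, by 0.042; none of these 4 passed at an unadjusted p under 0.05.

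The 7 tissue-restricted isoforms of complex IV, known from heart and skeletal muscle (Cox6a2, Cox7a1, Cox8b), lung (Cox4i2) and testis (Cox6b2, Cox7b2, Cox8c), averaged between 6.58 and 6.87 on each array, near the median level of all genes (7.10). One of them, Cox7b2, was below the lower quartile of gene levels. Signal over background was not examined. Cox6b2 was at 7.46 ± 0.16 and 7.18 ± 0.19 (limma adjusted p = 0.231) and Cox4i2 at 7.44 ± 0.07 and 7.30 ± 0.07 (adjusted p = 0.263), both with overlapping groups. Cox8c differed by -0.19, Cox6a2 by -0.059 and Cox7b2 by -0.047. Cox7a1 and Cox8b were highest on IIKO array 1. There they stood at 7.73 and 7.15, against at most 7.31 and 6.76 on any other array. Without it, their differences of 0.11 and 0.039 became -0.060 and -0.12.

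ATP synthase, complex V, had 14 of 17 members negative (82.4%, against 62.9% of all genes) and 0 past the adjusted test. Of the 17, 5 were lower at an unadjusted p under 0.05 (29.4%, against 12.0% of all genes). The 3 genes of the c-ring, which encode the same mature protein with different import sequences, were all negative, with a median of -0.20. Atp5g1 was at 9.48, 9.49, 9.60 and 9.49 in WT and at 9.04, 8.96, 9.34 and 9.21 in IIKO. All IIKO arrays were lower but widely spread (-0.37 ± 0.08, SE; limma adjusted p = 0.124). Atp5g3 was at 11.83 ± 0.07 and 11.63 ± 0.08 without overlap (adjusted p = 0.180), and Atp5g2 at 12.48 ± 0.04 and 12.36 ± 0.12 with overlap (adjusted p = 0.372).

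Of the 5 small membrane subunits beside the ring, some of which hold the enzyme in dimers, 4 were negative. Atp5mpl was at 12.45, 12.44, 12.56 and 12.55 in WT and at 12.24, 12.25, 12.19 and 12.32 in IIKO, without overlap (-0.25 ± 0.06, SE; limma adjusted p = 0.129). It passed with eBayes trend and robust variance (adjusted p = 0.0379). Atp5k, subunit e, was at 11.75, 11.67, 11.88 and 11.83 in WT and at 11.44, 11.56, 11.55 and 11.60 in IIKO, also without overlap (-0.24 ± 0.06, SE; adjusted p = 0.157). Atp5j2 was at -0.087 without overlap and Atp5l at -0.14 with overlap, and Atp5md was at 0.022. All 5 genes of the catalytic head and central stalk were negative, with a median of -0.054: Atp5b, the catalytic beta subunit, was at -0.0067, Atp5a1 at -0.054, Atp5c1 at -0.038, Atp5e at -0.11 and Atp5d at -0.13. In the peripheral stalk, Atp5o was at -0.14 without overlap, while Atp5j (-0.039), Atp5h (0.0084) and Atp5pb (0.022) lay near 0 on the probe sets kept.

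**Figure D3:**
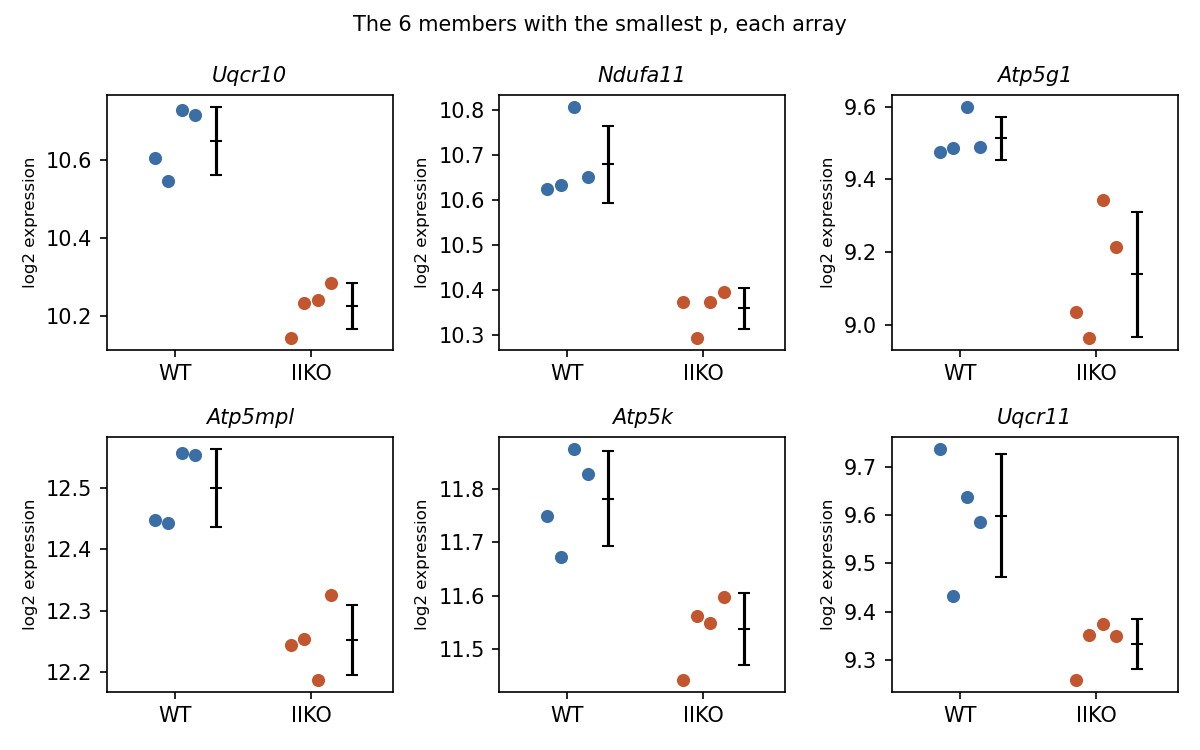
Log2 expression (vertical axis, a separate range for each gene) on the 4 WT (blue) and 4 IIKO (orange) arrays for the 6 members with the smallest p, with the mean and SD in black beside each group. In each panel every IIKO array lies below every WT array.

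Several members have more than 1 probe set, and these did not always go one way. Of the 18 such genes, 10 had probe sets of both signs. The 2 dimmer probe sets of Atp5g2 differed by -0.25 and -0.37, more than the kept one (-0.12). Those of Atp5l ran from -0.44 to 0.11 over 5 probe sets, and Atp5md had 1 at -0.36 beside its kept 0.022. The dimmer probe sets of Atp5h differed by -0.12 and -0.076 (kept 0.0084), and that of Atp5pb by -0.044 (kept 0.022). Both probe sets of Ndufa11, Ndufc1, Ndufs3, Uqcr11 and Atp5g1 were negative. Subunit genes have processed pseudogenes, and 6 probe sets shared between a member symbol (Cox7c, Ndufb4 or Ndufs5) and another symbol were left out, so a member's signal can hold some from a near-identical copy.

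Chromosomes 7 and 17 carried 9 and 6 members. Those of chromosome 17 had a median of -0.13, and Ndufa11, Ndufa7 and Ndufb10 all lie there. Those of chromosome 7 had a median of -0.039. The 69 members elsewhere had a median of -0.077, with 56 negative (81.2%), and 15 lower (21.7%) and 1 higher at an unadjusted p under 0.05. Of the 17267 genes tested without those 2 chromosomes, 62.1% were negative and 11.4% were lower at that level.

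Other mitochondrial gene lists were set beside the subunits, and 0 of their genes passed the adjusted test. Over all genes, 62.9% were negative, and 12.0% were lower and 5.27% higher at an unadjusted p under 0.05. The 43 measured assembly factors, which build the complexes but are not part of them, had a median of 0.036, with 18 negative; without WT array 4 the median was -0.034. At an unadjusted p under 0.05, 2 were lower (4.65%) and 1 higher, and the smallest p were those of Ndufaf3 (-0.27) and Uqcc2 (-0.24). Proteins of the mitochondrial ribosome had a median of -0.029 over 77 genes, with 45 negative (58.4%), 11 lower (14.3%) and 3 higher at that level. These shares lay near those of all genes. Mrpl33 (0.32, limma adjusted p = 0.0847) and Mrpl14 (-0.31, adjusted p = 0.125) led them, and Mrpl33 passed with centred arrays (adjusted p = 0.0465). Pyruvate dehydrogenase and citric acid cycle enzymes had a median of 0.0087 over 17 genes, with 1 lower and 1 higher, Mdh2 (-0.15) and Dld (0.15). The 24 import genes had a median of 0.0033, with 2 lower and 3 higher, led by Dnajc19 (-0.18) and Tomm34 (0.17).

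Regulators of mitochondrial biogenesis, the factors that drive transcription of nuclear and mitochondrial respiratory genes, had a median of 0.077 over 20 genes, with 12 positive. The median was 0.038 without WT array 4 and 0.13 with centred arrays. Tfam, which packages and transcribes mitochondrial DNA, was at 9.33, 9.19, 9.24 and 9.05 in WT and at 9.49, 9.49, 9.42 and 9.46 in IIKO. The groups did not overlap (0.26 ± 0.07, SE; limma adjusted p = 0.152). Yy1 was at 9.97 ± 0.05 and 10.10 ± 0.05, also without overlap (adjusted p = 0.256). Carriers of ATP and phosphate had a median of -0.024 over 10 genes, with Atpif1, the inhibitor of ATP synthase, at -0.13 and Slc25a5, the main ADP/ATP exchanger of dividing cells, at 0.14 (-0.0090 as the mean of its probe sets). Mitochondrial antioxidant enzymes had a median of -0.10 over 9 genes, led by Txn2 (-0.22) and Glrx5 (-0.18). It was -0.034 without IIKO array 4 and -0.042 with probe sets averaged. Transcripts of mitochondrial DNA were not analysed here. Medians near 0 turned sign. Those of the ribosomal proteins and the carriers were 0.022 and 0.026 with centred arrays and 0.0072 and 0.019 without WT array 1. Those of the citric acid cycle and import genes were -0.030 and -0.039 after a further quantile normalization and -0.040 and -0.019 without WT array 4.

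**Figure D4:**
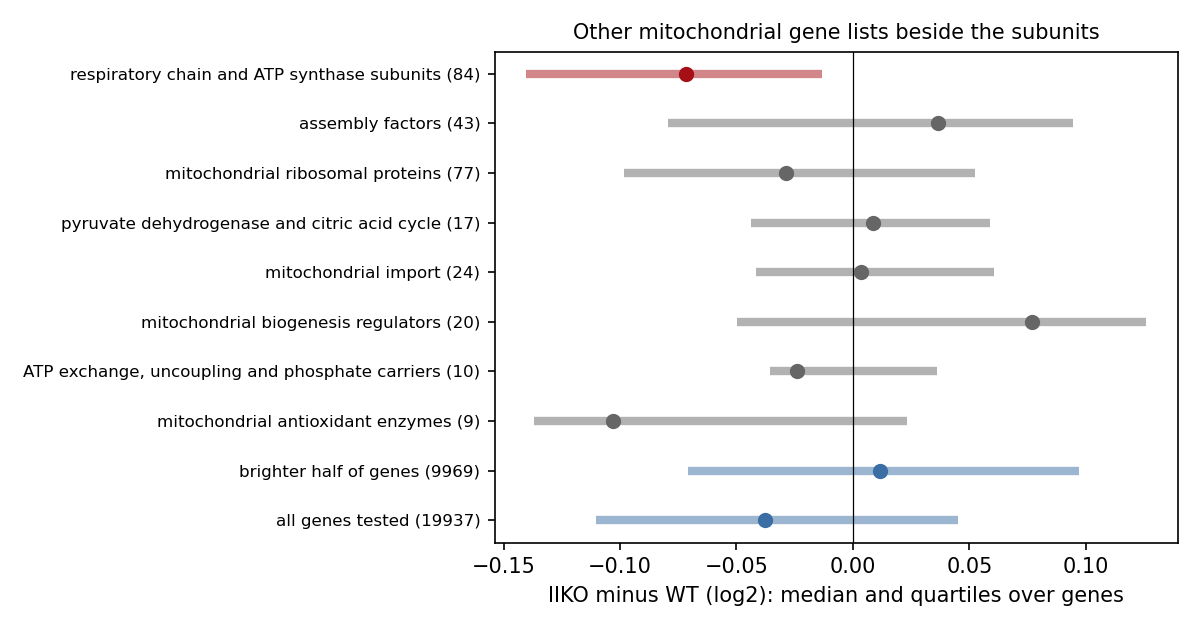
Points are the median difference IIKO minus WT (log2, horizontal axis) over the genes of each list and bars run from the lower to the upper quartile, with the number of measured genes in brackets. As deposited, the subunits' upper quartile lies below 0, at -0.013, and the bars of the other lists cross 0. With centred arrays, not drawn here, the subunits' upper quartile is 0.037, so their bar would cross 0. The lower quartiles of the citric acid cycle, import, biogenesis and carrier lists are then above 0, at 0.0065, 0.0087, 0.00081 and 0.015.

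Promoters of nuclear respiratory genes are known for sites of NRF1, of GABPA (also called NRF2, an ETS factor) and of YY1. RefSeq promoter windows (GRCm38.p6, 250 bases before to 50 after the start) were matched by gene identifier for 68 of the 84 members and 15562 genes in all. They were searched on both strands for short runs of letters. For NRF1 the run was GCATGCGC and for GABPA it was CCGGAAG. For YY1 the run was AAGATGGC, and the TATA box was searched as TATAAA. Overlapping matches were kept, and a window could hold several. The NRF1 letters were in 11 members (16.2%, against 4.29% of all genes), the GABPA letters in 17 (25% against 13.6%), the YY1 letters in 10 (14.7% against 3.77%) and the TATA letters in 8 (11.8% against 13.6%). The 11 members with the NRF1 letters had a median difference of -0.14 with 9 negative, and the 57 without had -0.069 with 44 negative. Medians with and without were -0.11 and -0.071 for GABPA, and -0.050 and -0.079 for YY1. A match of letters is a description of the window and does not show binding.

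The 150 bases before the start are shown for the 5 members with the smallest p whose promoter was matched and for Cycs, the cytochrome c gene. Capitals mark the NRF1 or GABPA letters, on either strand. The stretches lie at chr11:4704345-4704494 for Uqcr10 (minus strand), chr17:56717612-56717761 for Ndufa11 (plus strand), chr11:96075632-96075781 for Atp5g1 (minus strand), chr5:108434400-108434549 for Atp5k (minus strand), chr10:80406822-80406971 for Uqcr11 (minus strand) and chr6:50566570-50566719 for Cycs (minus strand), in GRCm38.p6.
Uqcr10: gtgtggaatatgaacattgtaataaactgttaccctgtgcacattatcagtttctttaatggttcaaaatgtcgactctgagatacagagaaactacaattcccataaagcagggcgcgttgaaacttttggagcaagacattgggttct
Ndufa11: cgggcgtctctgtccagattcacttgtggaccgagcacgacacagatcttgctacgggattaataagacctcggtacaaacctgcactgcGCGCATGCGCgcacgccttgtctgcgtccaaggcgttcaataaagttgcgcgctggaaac
Atp5g1: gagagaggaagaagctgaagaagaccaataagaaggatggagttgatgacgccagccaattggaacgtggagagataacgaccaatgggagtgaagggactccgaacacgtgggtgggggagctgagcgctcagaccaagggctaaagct
Atp5k: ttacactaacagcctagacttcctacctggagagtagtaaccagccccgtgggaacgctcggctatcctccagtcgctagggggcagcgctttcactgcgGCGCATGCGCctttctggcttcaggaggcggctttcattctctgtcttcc
Uqcr11: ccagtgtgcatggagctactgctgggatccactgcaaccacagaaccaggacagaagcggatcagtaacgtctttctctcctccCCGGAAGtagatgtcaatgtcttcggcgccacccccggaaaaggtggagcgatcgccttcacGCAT
Cycs: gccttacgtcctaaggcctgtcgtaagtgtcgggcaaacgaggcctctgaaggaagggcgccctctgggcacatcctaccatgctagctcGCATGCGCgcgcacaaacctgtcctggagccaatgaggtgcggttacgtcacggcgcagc
In Ndufa11 and Atp5k the NRF1 letters were present on both strands, overlapping, beginning 60 and 50 bases before the start. In Cycs they began 60 bases before it, on the gene's own strand. In Uqcr11 they began 4 bases before the start and run past the end of the stretch shown, downstream of the GABPA letters at 66 bases before it. The windows of Uqcr10 and Atp5g1, with the largest differences of all members, held none of the 4 sets of letters.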

How the data were processed

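Total RNA (100 ng per sample) was hybridised to 8 Affymetrix arrays. What the authors deposited is a log2 value for every probe set. The submitters' processing notes name affy and RMA, and their versions were not stated. RMA subtracts background, makes array distributions alike and combines probes, so small shared shifts depend on it. Precision is limited by having 4 arrays per group.

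Of 34760 probe sets, 21640 had 1 symbol in the platform annotation, 1321 several and 11799 none; only the first kind was used, and the brightest per gene was kept (19937 genes). Chromosomes came from a reference table (GRCm38.p6). No dim genes were removed. limma 3.58.1 (R 4.3.3; lmFit, eBayes) compared the groups over all genes, two-sided, with Benjamini-Hochberg adjustment. Lists are described by counts and medians only. The members and lists were chosen with earlier results of these data known.

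Genes named by rule are the 4 of smallest p in each larger complex, those past the threshold, complex II, Cyc1, Cycs and the isoform groups, and 2 per further list; others are named to complete a subunit class, with values seen. On simulated arrays of the 19937 genes, limma recovered 12.8% of changes of 0.25 log2, 87.0% of 0.5 and 99.2% of 1, with 5.38% of calls false. The simulation drew independent normal noise, with SDs shuffled between genes, and changed 200 genes in each of 10 runs. It held no shift shared by many genes, so these rates may not hold for the real arrays. Alternatives were another threshold, a replicate block, 2 rescalings, brighter genes only, other variance and weight models, probe set means, each array left out, and chromosomes 7 and 17 left out; those of the further lists were added after seeing the data. Figures used matplotlib 3.10.9.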

Additional observations from a re-analysis of the deposited data

Results flagged for a closer look

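In 7 of 106 groups of 4 arrays examined (the named genes and the complex means), 1 array stood apart from the other 3 by Dixon's criterion at the 95% level; chance gives about 1 group in 20. WT array 3 was the array in 4 of them. It was highest for Ndufa11 (10.81, others 10.63 to 10.65) and Atp5g1 (9.60, others 9.48 to 9.49), and lowest for Ndufa13 (10.02, others 10.11 to 10.13) and Atpif1 (11.97, others 12.02). WT array 2 was lowest for Sdhd (8.31, others 8.42 to 8.43) and WT array 4 for Cox6a2 (7.68, others 7.86 to 7.89). IIKO array 3 was highest for Tomm34 (9.39, others 9.28 to 9.29).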

How the results depend on the processing

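The median difference of the 84 members and of each of complexes I to IV and ATP synthase stayed negative in all alternatives run. With arrays centred on their medians they moved to -0.021 for all members, -0.021 for complex I, -0.067 for complex III, -0.0090 for complex IV and -0.056 for ATP synthase. The members lower or higher at an unadjusted p under 0.05 then fell from 21 to 11. Over all genes, this share was 17.3% as deposited and 14.9% with centred arrays. The members lower at that level were 20 and 9, against 12.0% and 5.03% of all genes. At a threshold of 0.01, 8 members passed unadjusted and 0 adjusted. The share of all genes at an unadjusted p under 0.01 is not given here, so these 8 cannot be set against it. The count of members past the adjusted test was 1 in the main analysis, 2 after a further quantile normalization (with Ndufa11), 3 with trend and robust variance (with Ndufa11 and Atp5mpl) and 0 without chromosomes 7 and 17. Each array left out in turn gave 0 to 1 members adjusted and 12 to 21 unadjusted (12 without WT array 1, 13 without WT array 3). Over all genes, the unadjusted share was 15.1% without WT array 1 and 15.9% without WT array 3. The members lower at that level were then 12 and 12 of 84, against 10.1% and 10.9% of all genes. Over all arrays left out, the unadjusted share of all genes ran from 12.7% (without IIKO array 1) to 20.3% (without IIKO array 4). Medians ran from -0.094 to -0.058 for all members, -0.094 to -0.058 for complex I, -0.090 to -0.038 for complex II and -0.087 to -0.046 for complex IV. They ran from -0.13 to -0.066 for complex III (the latter without IIKO array 3) and -0.11 to -0.077 for ATP synthase (the latter without IIKO array 1). In all, 9 of the 84 members, each lower in IIKO, kept an unadjusted p under 0.05 whichever array was left out. Of all genes, 7.93% did so, counting both directions. The 9 were Uqcr10, Uqcr11, Ndufa11, Ndufa7, Ndufa13, Atp5g1, Atp5g3, Atp5k and Atp5mpl. Differences near 0 turned sign. Sdha was -0.019 after the further quantile normalization and -0.020 (without IIKO array 4) to 0.039 as single arrays were left out. Cyc1 was 0.043 with centred arrays and -0.086 to 0.070 (without WT array 2) as single arrays were left out. Cox6b1 was 0.012 with centred arrays, while single arrays left out gave Cox7a1 -0.060 to 0.20 and Cox8b -0.12 to 0.17, both lowest without IIKO array 1, and Cox7a2l -0.0069 (without WT array 2) to 0.087. Ndufa4l2 was 0.047 and 0.022 after the 2 rescalings and -0.11 to 0.047 (without WT array 2) as single arrays were left out. Slc25a5 was -0.0090 as the mean of its probe sets. With the replicate number as a block, 0 members passed adjusted (Uqcr10 at a limma adjusted p of 0.0696) and 18 unadjusted, where 17.3% of all genes passed unadjusted. Deviations of same-numbered arrays from their group means had Pearson's r over genes of 0.045, -0.015, -0.068 and 0.22. The value of 0.22, for WT array 4 and IIKO array 4, was the highest of any WT and IIKO pair. The next was 0.10, for WT array 1 and IIKO array 2. These values do not settle whether the replicate numbers pair the arrays. The causes were not tested, and the depth of signal over background was not examined.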
